A study of Fukomys damarensis and Heterocephalus glaber and Mus musculus with 160 samples.

Results

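The form of heart H3K4me3 peaks was compared across 4 rodents: the naked mole-rat (NMR), the Damaraland mole-rat (DMR), the guinea pig and the mouse. Every heart library whose title names the H3K4me3 antibody was taken, which gave 4 naked mole-rat, 5 Damaraland mole-rat, 3 guinea pig and 6 mouse libraries, 18 of the series' 160 samples and of its 116 samples with a peak list. The rule used no measured value. The series profiled 3 histone modifications in heart and liver of these species by chromatin immunoprecipitation followed by sequencing, with some transcription factor libraries in the mole-rats. All 18 hearts came from wild-type adult males. Naked mole-rats were 14 to 17 months old, Damaraland mole-rats an estimated 36 to 48 months, guinea pigs 2.3 months and C57BL/6J mice 2 months. The genome assembly also differs with the species, so species, age and assembly cannot be told apart. Each library is 1 animal, except 1 mouse library that pools 3 mice and counts as 1 sample.

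H3K4me3, the trimethylated form of lysine 4 of histone H3, is laid down by SET1 and MLL complexes on nucleosomes that flank the start sites of active genes. The start site itself is often free of nucleosomes, so the signal at a promoter commonly has a gap between its shoulders, and a peak caller may report it as 1 broad peak or as several neighbouring ones. Most promoters carry a peak of moderate width, while broad H3K4me3 domains are known from genes of cell identity, in heart as in other tissues. Heart is mostly cardiomyocytes by mass, but fibroblasts, endothelial cells and other types are mixed into the chromatin of a whole-tissue library, and fewer cells of a type and less of the mark per cell cannot be told apart.

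Each library's list holds, for every peak, its start and end, the fold enrichment over background, a −log10 p-value, a −log10 q-value and the offset of the summit, the base of highest signal. The lists held 552308 peaks in all: 25868 to 55315 per naked mole-rat, 20803 to 53676 per Damaraland mole-rat, 21481 to 24629 per guinea pig and 18135 to 32785 per mouse. Because peak number follows depth, which these lists do not carry, libraries were compared by 5 measures of form, over all peaks and again over the 18000 peaks of highest −log10 p in each list. These were the median width, the share of peaks at least 2000 bases wide, the median fold, the share of peaks with another peak within 2000 bases edge to edge, and the distance of the summit from the centre of its peak as a percentage of the distance from centre to edge. Over the 6 species pairs this gave a family of 30 comparisons, each tested with a two-sided exact permutation test over libraries, with Benjamini-Hochberg adjustment and a threshold of 0.05. With these group sizes the smallest p that can be reached runs from 0.0043 for Damaraland mole-rat against mouse to 0.057 for naked mole-rat against guinea pig, a pair that therefore cannot pass. In a family of 30, a single comparison at the smallest p of any other pair could not pass either. Several low p-values had to occur together, so missing the threshold does not show that species are alike.

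A few lists stood apart before any comparison. In every list the shortest peaks share 1 exact length, between 138 and 295 bases. Peaks at that length made up 72.1% of the list of naked mole-rat NMR34, 39.6% of NMR35, 45.2% of Damaraland mole-rat DMR4 and 41.6% of mouse 6842, against 1.41% to 13.0% in the other 14 lists. These 4 lists also held the lowest shares of peaks with a −log10 q of at least 4: 35.3%, 66.1%, 67.0% and 69.0%, in that order, against 88.7% to 96.6% elsewhere. NMR34 was called against the input chromatin of another animal, NMR32, and 5 of the 6 mouse libraries were called against inputs of other mice; the part of this in the results was not tested. The tissue label could not be checked against cardiac genes, because no gene annotation of these assemblies was used here.

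Over whole lists the mole-rats had the shorter peaks on average, but the libraries of a species varied widely. Median widths were 191, 740, 518 and 295 bases in naked mole-rats NMR35, NMR31, NMR32 and NMR34. In Damaraland mole-rats DMR2, DMR4, DMR1, DMR3 and DMR11 they were 494, 188, 581, 512 and 444 bases. All 3 guinea pigs had longer medians than any mole-rat, at 1003, 757 and 945 bases. The 6 mice ran from 334 bases in mouse 6842 through a median of 878.5 to 1138 bases, so their lowest library lay inside the mole-rat range while the other 5 lay above it.

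On the log2 scale the mean median width was 8.58 ± 0.86 (SD, n = 4) in naked mole-rats, 8.70 ± 0.65 (SD, n = 5) in Damaraland mole-rats, 9.81 ± 0.21 (SD, n = 3) in guinea pigs and 9.60 ± 0.62 (SD, n = 6) in mice. Damaraland mole-rats against guinea pigs differed by -1.11, without overlap of the libraries (exact permutation p = 0.036, the smallest the design allows, adjusted p = 0.143). Against mice they differed by -0.90 (exact permutation p = 0.043, adjusted p = 0.144), and naked mole-rats against mice differed by -1.02 (exact permutation p = 0.076, adjusted p = 0.176). No width comparison passed the threshold over whole lists. The 2 mole-rats differed from each other by -0.11 on the log2 scale, and guinea pigs from mice by 0.21, both well inside the spread of their libraries (exact permutation p = 0.825 and 0.810).

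With weak or very short peaks left out, the mole-rats and the other species no longer overlapped in width. Among peaks with a −log10 q of at least 4, the width difference was -0.90 for naked mole-rats against mice and -0.89 for Damaraland mole-rats against mice, both without overlap and both past the threshold (exact permutation test, adjusted p = 0.048 and 0.043). Among peaks of at least 300 bases the medians were 533 to 877 bases in all 9 mole-rats and 891 to 1246 bases in the 9 guinea pigs and mice, so the ranges did not overlap. With that limit Damaraland mole-rats against mice passed (difference -0.59, exact permutation test, adjusted p = 0.043) and naked mole-rats against mice did not (-0.64, adjusted p = 0.071). With equal numbers of peaks the gap shrank: the 18000 top peaks had medians of 398 to 1089 bases in naked mole-rats, 497 to 1007 in Damaraland mole-rats, 998 to 1199 in guinea pigs and 775 to 1552 in mice. These ranges overlap, and the differences of -0.72 and -0.51 from mice had adjusted p = 0.213 by the exact permutation test. Over all alternatives tried, the adjusted p ran from 0.048 to 0.451 for naked mole-rats against mice and from 0.043 to 0.357 for Damaraland mole-rats against mice, with the direction kept in each. Library names in the titles begin with do or vl, which the labels do not explain, and all 6 mice carry do. Among libraries with the same prefix the width differences from mice were -2.02 (1 naked mole-rat, NMR35) and -1.35 (2 Damaraland mole-rats, DMR2 and DMR4). NMR35 and DMR4 are among the lists with many peaks at the shortest length, so these differences do not separate prefix from species.

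**Figure D1:**
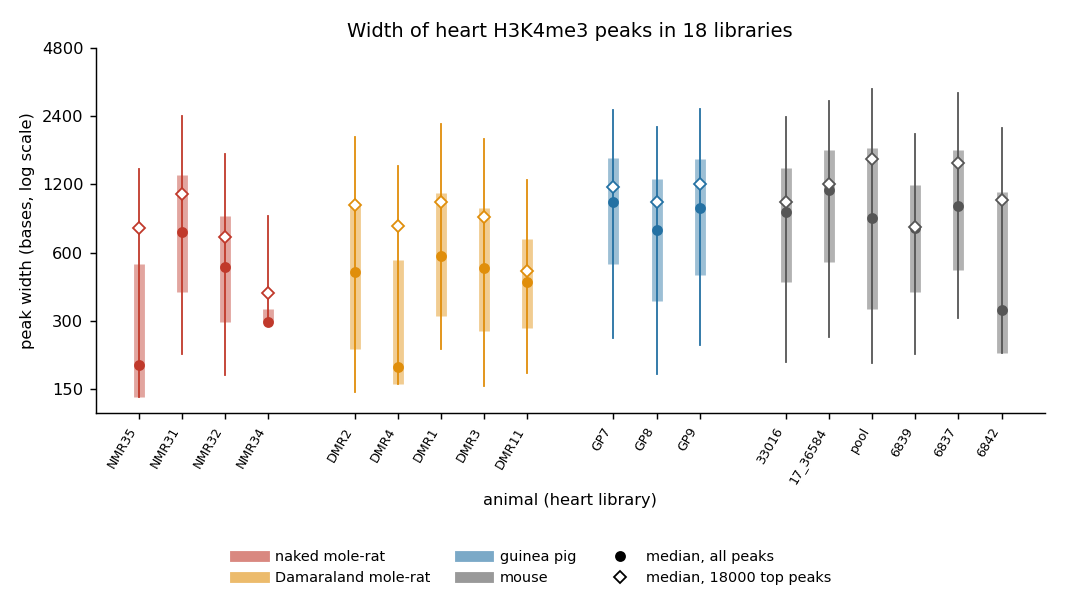
Width of heart H3K4me3 peaks per library, in bases on a log axis. Thin lines span the 5th to 95th percentile of a list, thick bars the middle quartiles, filled circles the median over all peaks and open diamonds the median over the 18000 peaks of highest −log10 p. NMR35, NMR34, DMR4 and mouse 6842 have their median near the bottom of the list, and their diamonds sit higher, at 767, 398, 783 and 1020 bases.

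Peaks of at least 2000 bases, the broad end of each list, were the minority everywhere. Their share was 1.61%, 9.06%, 2.42% and 0.191% in NMR35, NMR31, NMR32 and NMR34. It was 4.54%, 1.69%, 6.92%, 4.17% and 0.610% in DMR2, DMR4, DMR1, DMR3 and DMR11. Guinea pigs 7, 8 and 9 had 12.2%, 6.55% and 12.3%, and mice from 4.96% through a median of 12.8% to 18.6%. The mean was 3.59% ± 2.49 (SD, n = 5) in Damaraland mole-rats and 12.1% ± 6.0 (SD, n = 6) in mice, a difference of -8.52 percentage points (exact permutation p = 0.017, adjusted p = 0.143). Naked mole-rats, at 3.32% ± 3.93 (SD, n = 4), differed from mice by -8.79 points (exact permutation p = 0.038, adjusted p = 0.143). NMR31 and DMR1, the mole-rats with the largest shares, lay within the range of guinea pigs and mice. Restricted to a −log10 q of at least 4, the Damaraland mole-rat against mouse difference was -9.29 points and passed (exact permutation test, adjusted p = 0.048). Over the 18000 top peaks the same difference was -10.1 points and did not (adjusted p = 0.213 by the exact permutation test), the mice alone spanning 5.00% to 31%. Its adjusted p over all alternatives ran from 0.048 to 0.357, and within a name prefix the difference was -8.99 points (2 against 6 libraries, DMR2 and DMR4 against the mice).

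The fold enrichment of a list depends on the efficiency of the pull-down and on its input, so its level describes a library more than a species. Median folds were 5.25, 22.3, 11.5 and 4.47 in NMR35, NMR31, NMR32 and NMR34, and 15.0, 5.01, 10.6, 14.3 and 10.7 in the Damaraland mole-rats in the order above. Guinea pigs had 30.5, 22.2 and 24.1, all above every Damaraland mole-rat, while mice ran from 7.38 through 17.0 to 30.8. The lowest folds of 3 of the species belonged to NMR34, DMR4 and mouse 6842, the same lists that are full of peaks at the shortest length. In log2, Damaraland mole-rats against guinea pigs differed by -1.29 (exact permutation p = 0.036, adjusted p = 0.143) and naked mole-rats against guinea pigs by -1.53 (exact permutation p = 0.114, adjusted p = 0.214). No fold comparison passed over whole lists, in the 18000 top peaks or under the other choices tried.

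The shape of the fold distribution does not depend on a common scale factor, but it does depend on where a list is cut. The weakest of the 18000 top peaks had a −log10 p of 53.4 in DMR2 and 4.91 in mouse 6839. In the 18000 top peaks the 90th percentile of fold was 2.00 to 2.35 times the median in naked mole-rats and 2.14 to 2.48 times in Damaraland mole-rats. It was 2.74 to 3.08 times in guinea pigs and, in mice, 2.45 times in the pool of 3 animals and 3.0 to 3.44 times in the other 5. Over whole lists this order was absent: the ratio was 1.96 to 4.68 in naked mole-rats, 2.34 to 6.90 in Damaraland mole-rats, 4.00 to 4.21 in guinea pigs and 3.36 to 12.2 in mice. Both are given as a description without a test. Within a list, wider peaks had higher folds. Across peaks of a library, Spearman's rho between width and fold was 0.69 to 0.90 over all peaks and 0.47 to 0.80 in the 18000 top peaks; both values of a peak come from the same reads, and peaks are not replicates.

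**Figure D2:**
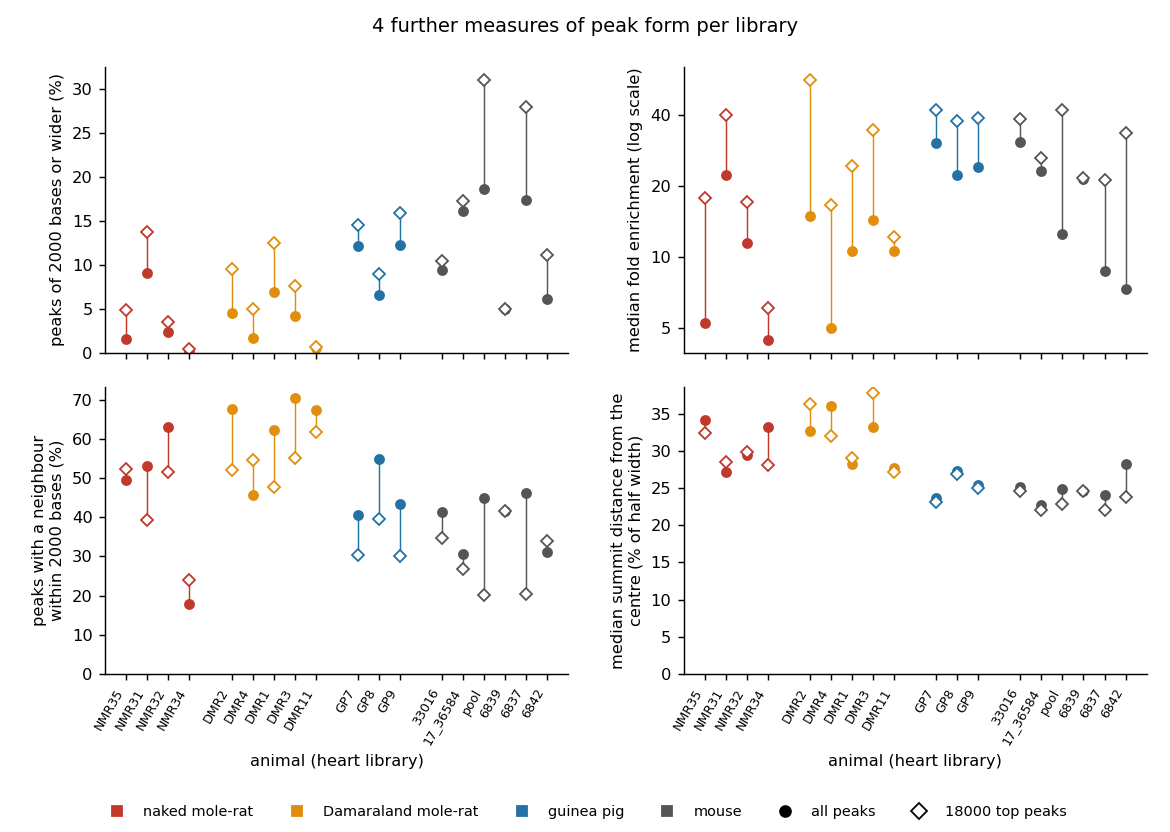
Share of broad peaks, median fold (log axis), share of peaks with a close neighbour, and median summit distance from the centre, per library. Filled circles are all peaks and open diamonds the 18000 peaks of highest −log10 p. In the lower panels the diamonds of all 5 Damaraland mole-rats lie above those of all 6 mice.

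Close neighbours were most frequent in the Damaraland mole-rat. The share of peaks with another peak within 2000 bases was 67.6%, 45.7%, 62.3%, 70.5% and 67.5% in DMR2, DMR4, DMR1, DMR3 and DMR11. It was 40.6%, 55.0% and 43.5% in guinea pigs 7, 8 and 9, and from 30.6% through 41.5% to 46.2% in mice. Naked mole-rats NMR35, NMR31 and NMR32 had 49.6%, 53.0% and 63.2%, and NMR34 had 17.8%, the lowest of all 18. Damaraland mole-rats, at 62.7% ± 9.97 (SD, n = 5), exceeded mice, at 39.3% ± 6.81 (SD, n = 6), by 23.4 percentage points (exact permutation p = 0.0087, adjusted p = 0.143), with DMR4 alone inside the mouse range. Naked mole-rats, at 45.9% ± 19.6 (SD, n = 4), exceeded mice by 6.55 points (exact permutation p = 0.467), and by 15.9 points without NMR34 (exact permutation p = 0.024, adjusted p = 0.153).

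Damaraland mole-rats lay above mice in the other sets of peaks too. In the 18000 top peaks the share was 47.7% to 61.8% in Damaraland mole-rats, 30.1% to 39.6% in guinea pigs and 20.2% to 41.6% in mice, so Damaraland mole-rats did not overlap either group. They exceeded mice by 24.6 points (exact permutation p = 0.0043, the smallest the design allows, adjusted p = 0.065). At a −log10 q of at least 4 the difference was 26.2 points, and in peaks of at least 300 bases 25.9 points; both passed (exact permutation test, adjusted p = 0.043 for each). Among peaks met in every other library of the species it was 33.5 points (adjusted p = 0.065 by the exact permutation test). Naked mole-rats in the 18000 top peaks had 52.3%, 39.3%, 51.5% and, in NMR34, 24.0%, and their difference of 12.2 points from mice did not pass (exact permutation p = 0.114, adjusted p = 0.214). The adjusted p of Damaraland mole-rats against mice ran from 0.043 to 0.357 over all alternatives; its difference was 9.54 points in the 5000 top peaks, a list with fewer peaks to be neighbours, and 17.3 points within a name prefix (2 against 6 libraries).

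Gaps between neighbouring peaks formed 2 ranges in every species, a short one and a long one far beyond 2000 bases, with few gaps between. The fewest gaps lay nearer 1000 bases in mice and NMR34, and nearer 2000 bases in the other mole-rats. Among neighbours within 2000 bases the median gap was 231 to 431 bases in naked and 269 to 374 in Damaraland mole-rats, against 183 to 265 in guinea pigs and 162 to 274 in mice. These ranges overlap. They also follow the name prefix: within guinea pigs and within each mole-rat species, every vl list had a longer median gap than every do list. All mice are do lists and most mole-rats vl lists. The class of 500 to 1000 bases was then looked at alone. In the 18000 top peaks it held 6.09%, 6.56%, 6.99% and 3.43% of all gaps in NMR35, NMR31, NMR32 and NMR34, and 7.51% to 9.55% in Damaraland mole-rats. In guinea pigs it held 2.49% to 3.32% and in mice 0.963% to 1.73%, so each of the 9 mole-rat libraries lay above each of the other 9, NMR34 by a small margin. Over all peaks NMR34, at 2.40%, lay below the guinea pigs, at 3.33% to 4.39%, and inside the mouse range of 1.50% to 4.13%, while the other 8 mole-rats had 5.28% to 10.4%. Gaps of at most 200 bases did not follow the species, with 4.12% to 13.2% in mole-rats and 4.61% to 13.3% in the rest. The shortest gaps were longer in every vl list than in every do list, so this class spans a narrower range in vl lists. The class of 500 to 1000 bases was also larger in vl than in do lists within guinea pigs and each mole-rat species, apart from NMR34. Among the do lists alone it held 6.09% of top-peak gaps in NMR35 and 7.51% and 7.67% in DMR2 and DMR4. Guinea pigs 7 and 8 had 2.49% and 2.78%, above the mice. The gap classes were set after the distribution had been seen and carry no test. Between the summits of close neighbours the median distance was 759 to 1060 bases in mole-rats and 773 to 1128 in guinea pigs and mice, which overlap.

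Joining peaks at most 500 bases apart left the Damaraland mole-rats above guinea pigs and mice. After joining, 20.5% to 37.1% of Damaraland mole-rat peaks still had a neighbour within 2000 bases, against 12.7% to 15.9% in guinea pigs and 6.93% to 18.1% in mice. Naked mole-rats, at 8.93% in NMR34 and 18.9% to 26.0% in the other 3, overlapped both guinea pigs and mice as a group. Joining also lengthened the median of the 18000 top peaks to 639 to 1287 bases in Damaraland and 401 to 1328 in naked mole-rats, against 1273 to 1387 in guinea pigs and 1036 to 1690 in mice.

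A region with a peak in every library of a species could be 1 peak in an animal and several in another. Of 10946 such regions in naked mole-rats, NMR35 had more than 1 peak in 37.8%, NMR32 in 27.4%, NMR34 in 16.1% and NMR31 in 2.34%. In Damaraland mole-rats the share was 10.2% to 26.8% of 15944 regions, in guinea pigs 6.63% to 19.6% of 18340 and in mice 6.57% to 25.3% of 13051. How often a shared region was broken up therefore varied between animals of a species as much as between species, and NMR31, which broke up the fewest regions, also had the longest median peak of the 9 mole-rats. A region is the union over 3 to 6 libraries, so its own length grows with the number of libraries. The widest peaks set its edges, so a library with wide peaks tends by construction to show few broken regions, as NMR31 did.

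**Figure D3:**
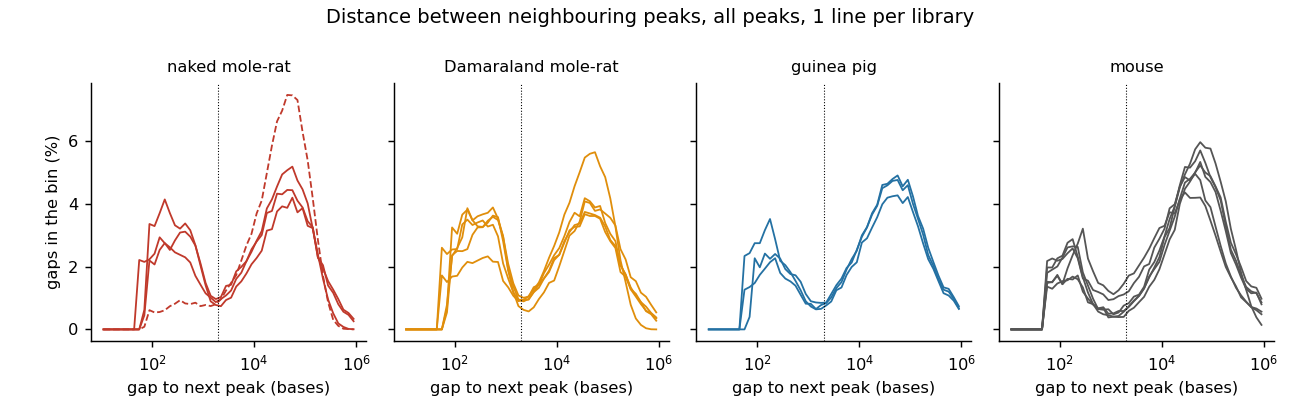
Distribution of the distance from each peak to the next, in bins of equal size on a log axis in bases, as a percentage of all gaps of the library. Each line is a library, the dashed line is NMR34 and the dotted vertical line is at 2000 bases. The short-gap hump extends further toward 1000 bases in the mole-rats other than NMR34 than in guinea pigs and mice.

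On average, summits lay further from the centre of their peak in mole-rats. A summit at the exact centre would give 0 and one at an edge 100%. Over all peaks the median was 34.2%, 27.1%, 29.5% and 33.2% in NMR35, NMR31, NMR32 and NMR34. It was 32.7%, 36.1%, 28.2%, 33.2% and 27.7% in DMR2, DMR4, DMR1, DMR3 and DMR11. Guinea pigs had 23.6%, 27.2% and 25.4%, below all 5 Damaraland mole-rats, and mice ran from 22.7% through 24.8% to 28.2%, the highest being mouse 6842. Naked mole-rats, at 31% ± 3.29 (SD, n = 4), differed from mice, at 24.9% ± 1.83 (SD, n = 6), by 6.06 points (exact permutation p = 0.019, adjusted p = 0.143). Damaraland mole-rats, at 31.6% ± 3.56 (SD, n = 5), differed from mice by 6.62 points (exact permutation p = 0.013, adjusted p = 0.143). The 2 mole-rats differed by 0.56 points from each other, and guinea pigs from mice by 0.48 (exact permutation p = 0.810 and 0.738).

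With 18000 peaks per list each mole-rat was separated from guinea pigs and from mice. In the 18000 top peaks the medians were 28.1% to 32.4% in naked and 27.2% to 37.7% in Damaraland mole-rats, and 23.2% to 26.9% in guinea pigs and 22.0% to 24.6% in mice, with no overlap between either mole-rat and either of the others. Damaraland mole-rats exceeded mice by 9.14 points (exact permutation p = 0.0043, adjusted p = 0.065) and naked mole-rats exceeded mice by 6.39 points (exact permutation p = 0.0095, adjusted p = 0.095), both at the smallest p the design allows. With 5000 top peaks Damaraland mole-rats still did not overlap mice (12.1 points, exact permutation p = 0.0043, adjusted p = 0.065), whereas naked mole-rats overlapped both mice (7.89 points, exact permutation p = 0.048, adjusted p = 0.152) and guinea pigs (5.15 points, exact permutation p = 0.40). At a −log10 q of at least 4 both passed, with differences of 6.42 and 4.42 points (exact permutation test, adjusted p = 0.043 and 0.048). Over all alternatives the adjusted p ran from 0.043 to 0.357 and from 0.048 to 0.451. Within a name prefix the differences from mice were 9.44 points (2 Damaraland mole-rats, DMR2 and DMR4) and 9.26 points (1 naked mole-rat, NMR35). DMR4 and NMR35 are among the lists with many peaks at the shortest length.

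Peaks of like width were compared as well. Among peaks 1000 to 2000 bases wide, the median distance was 35.4%, 29.7%, 34.3% and 39.4% in the naked mole-rats in the order above. In the Damaraland mole-rats it was 37.2%, 36.1%, 36.8%, 38.1% and 38.4%. Guinea pigs had 25%, 27.1% and 26.1% and mice ran from 20.5% through 23.2% to 27%. Every mole-rat library thus lay above every guinea pig and mouse library, with a gap from 27.1% to 29.7% that NMR34 did not set. Damaraland mole-rats against mice differed by 14.2 points, naked mole-rats against mice by 11.6, and Damaraland and naked mole-rats against guinea pigs by 11.2 and 8.61. Each p was the smallest the design allows (exact permutation p = 0.0043, 0.0095, 0.036 and 0.057), and adjusted over the 12 comparisons made in this width range none passed (0.052, 0.057, 0.137 and 0.137). With 12 comparisons, a single exact permutation p of 0.0043 could not pass by itself. Peaks of at least 2000 bases followed the same order, with 34.5% to 56.2% in mole-rats and 25% to 33.4% in guinea pigs and mice. Narrower peaks did not separate the species: under 500 bases the values were 18.3% to 35.3% and 17.3% to 31.2%. From 500 to under 1000 bases they were 21.3% in NMR34, 31% in DMR1 and 33.0% to 45.2% in the other 7 mole-rats, against 24.5% to 31.3%. Slightly more summits lay left of the centre, toward lower coordinates, than right of it in each of the 18 libraries, at 50.9% to 55.5% of peaks.

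Narrow and broad peaks differed within every library. Peaks were divided at 500, 1000 and 2000 bases. From the narrowest to the widest class the median fold was higher in all 18 libraries, for example 6.50, 26.2, 72.2 and 88.2 in mouse 33016 and 6.22, 32.0, 73.7 and 87.3 in DMR2. It was higher at each step in 17 of the 18, DMR11 being the exception with 20.8 and 20.5 in its top classes. DMR11 also held few broad peaks, 127 of its 20803.

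H3K27ac, the acetylation carried by active promoters and enhancers, followed the same order. A peak was counted as met when a heart H3K27ac region present in at least 2 libraries of the species covered at least 50% of the shorter of them. A wide peak can thus be met by a short region anywhere inside it, which favours wide peaks and was not corrected for. Of peaks of at least 2000 bases, 97.7% to 99.2% were met in naked mole-rats, 99.1% to 100% in Damaraland mole-rats and 99.5% to 99.8% in guinea pigs. In mice it was 98.5% to 100% in 5 libraries and 88.8% in mouse 6837. Of peaks under 500 bases, 16.9% in NMR34, 28.8% in NMR35, 31.1% in DMR4 and 29.0% in mouse 6842 were met, the 4 lists with many peaks at the shortest length, against 39.9% to 93.3% in the other 14. H3K4me1, typical of enhancers, did not follow width: its share was higher in the widest than in the narrowest class in 10 of 18 libraries. Peaks at least 2000 bases wide were met by H3K4me1 in 6.82% to 26.7% of cases in naked mole-rats and in 17.3% to 63.5% in the others, but the naked mole-rat H3K4me1 set is the smallest, with 44735 regions against 74368 to 92069.

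**Figure D4:**
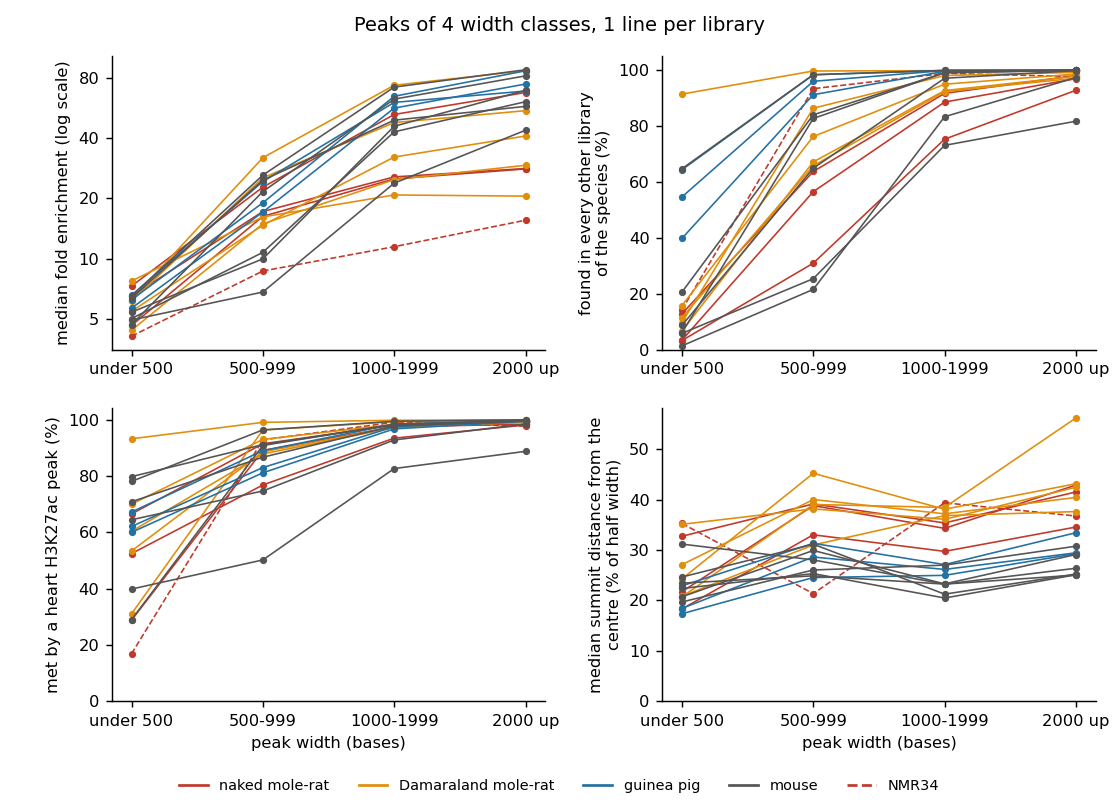
Median fold (log axis), share of peaks found in every other library of the species, share met by heart H3K27ac, and median summit distance from the centre, for 4 classes of peak width in bases. Each line is a library and the dashed line is NMR34. Fold, recurrence and H3K27ac are higher in the widest than in the narrowest class in all 18 libraries, and in the classes from 1000 bases up the summit panel separates the mole-rats from the rest.

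Reproducibility was measured with the Jaccard index, which divides the bases that a pair of libraries share by the bases in their union. It could be computed only within a species, since assemblies differ, and pairs share libraries, so no test was made. Guinea pigs had 0.774, 0.803 and 0.806, and 1 of the 31 pairs of other species reached above the lowest of these. Naked mole-rats formed separate sets: the pairs among NMR35, NMR31 and NMR32 had 0.597 to 0.621, and the 3 pairs with NMR34 had 0.215 to 0.268. The mean over the 6 pairs was 0.422, and 0.608 without NMR34. Damaraland mole-rats ranged from 0.410 to 0.705, the 4 pairs with DMR11 being the 4 lowest at 0.410 to 0.469, and their mean was 0.550, or 0.628 without DMR11. Mice ranged from 0.422 to 0.776 over 15 pairs, with a mean of 0.587.

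With 18000 peaks per list the index was 0.637 to 0.719 in naked mole-rats without NMR34 and 0.287 to 0.387 in pairs with it. It was 0.470 to 0.748 in Damaraland mole-rats, 0.779 to 0.819 in guinea pigs and 0.494 to 0.806 in mice. NMR34 thus lay apart with equal numbers of peaks as well, but 35.3% of its 18000 top peaks still had the shortest length of its list. In the other naked mole-rats that share was at most 0.0556%. The list of DMR11 was small in extent: it covered 11.2 Mb (megabases) against 23.7 to 27.1 Mb in the other 4, while 99.7% of its peaks were met in at least 1 other Damaraland mole-rat. In NMR34 that share was 28.7%, the lowest of all 18, and the other naked mole-rats had 53.0% in NMR35, 83.5% in NMR31 and 95.9% in NMR32.

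**Figure D5:**
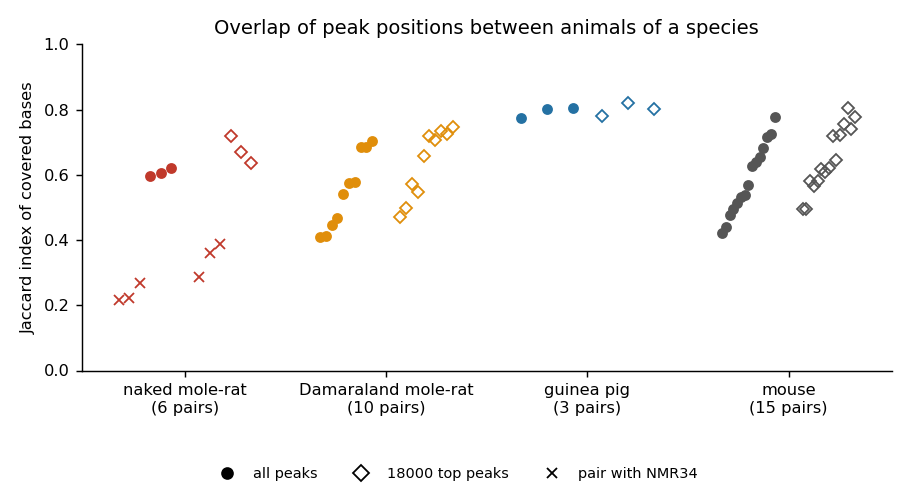
Jaccard index of covered bases (0 to 1) for every pair of libraries of a species, with all peaks (filled circles) and the 18000 peaks of highest −log10 p (open diamonds). Crosses mark the 3 pairs with NMR34, which lie at 0.215 to 0.268 and 0.287 to 0.387, below all other pairs.

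Broad peaks recurred in nearly every animal. By the overlap rule, a short peak lying anywhere inside a wide one can count as its match, which favours wide peaks. How much of the rise with width comes from this was not tested. Of peaks at least 2000 bases wide, 92.8% to 98.1% were met by a peak in every other naked mole-rat and 97.2% to 100% in every other Damaraland mole-rat. In guinea pigs 99.96% to 100% were met in both others, and in mice 97.4% to 100% in 5 libraries and 81.7% in mouse 6837. Under 500 bases the share was 3.21% to 14.2% in naked mole-rats and 6.63% to 15.7% in Damaraland mole-rats apart from DMR11 with 91.4%. It was 39.8% to 64.4% in guinea pigs and 1.31% to 20.5% in mice apart from mouse 6839 with 64.7%. Top peaks were matched only with the top peaks of the other libraries. A peak ranked below the cut in another list thus counted as not met, even where that list holds it. Of the 5000 top peaks, 53.3% to 54.0% were met in every other list in naked and 58.1% to 60.3% in Damaraland mole-rats. In guinea pigs the share was 79.8% to 80.5% and in mice 69.5% to 70.3%. With 18000 top peaks of each list the share was 52.7% to 57.9%, 74.9% to 88.4%, 88.5% to 96.0% and 69.5% to 84.7% in that order, so Damaraland mole-rats and mice changed places. These shares depend on how many libraries must agree, 4, 5, 3 and 6 in that order. In naked mole-rats they also require a match with NMR34, the list of lowest overlap, and no share without NMR34 is given.

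Summits of matched peaks lay close together between animals of a species. Matched peaks numbered 9736 to 10216 in the pairs with NMR34 and 13171 to 17533 in the other pairs. Only overlapping peaks are matched, which bounds the distance, and no distance by chance is given. Among 18000 top peaks matched between a pair of libraries, the median distance between summits was 36 to 87 bases in naked mole-rats, 32 to 70 in Damaraland mole-rats, 35 to 45 in guinea pigs and 40 to 68 in mice. In all 34 pairs at least 68.8% of matched summits lay within 150 bases of each other. Widths were less stable: across matched peaks, the median ratio of the widths in a pair lay between 0.559 and 2.25, and Spearman's rho of width between a pair of animals was 0.34 to 0.87.

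The widest regions present in every library of a species are given for orientation, chosen by width and described only; each width is the widest single peak of a library there. In naked mole-rats it was JH168664.1:373969-383395 (HetGla_1.0), where the widest peak was 7639 ± 1263 bases (SD, n = 4), from 6454 in NMR34 to 9427 in NMR31. In Damaraland mole-rats it was KN122776.1:6185872-6194926 (DMR_v1.0), with 7928 ± 973 bases (SD, n = 5), lowest in DMR11 and highest in DMR1. The guinea pig region was DS562905.1:4708296-4717446 (Cavpor3.0), with 8276 ± 1188 bases (SD, n = 3). In mice it was chr5:57714203-57724341 (GRCm38), with 8254 ± 1797 bases (SD, n = 6), from 4911 in mouse 6839 to 9682 in mouse 6837. Mean folds there ran from 35.2 in mice to 77.5 in Damaraland mole-rats. The second-widest regions had mean widths of 6444, 6820, 6667 and 8161 bases in naked mole-rats, Damaraland mole-rats, guinea pigs and mice. All 4 overlapped a heart H3K27ac region and a liver H3K4me3 region, and those of guinea pig and mouse also a heart H3K4me1 region.

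The region of highest mean fold in each species was chosen by that fold and is likewise described only. In naked mole-rats it was JH170405.1:3223080-3224009, with a fold of 96.5 ± 70.2 (SD, n = 4) and a widest peak of 651 ± 210 bases. In Damaraland mole-rats it was KN094604.1:1-370, whose fold ran from 31 to 819 between animals; the region begins at the first base of its scaffold. In guinea pigs it was DS562916.1:9075051-9077783, with a fold of 315 ± 64.1 (SD, n = 3) and a width of 1966 ± 666 bases. In mice it was chr4:127020775-127025582, with 196 ± 49.2 (SD, n = 6) and 2826 ± 789 bases. In guinea pig and mouse the lowest fold of any animal in these regions was 277 and 149, while in the naked mole-rat it was 23.6. The widths do not order the species: the second region by fold was 1743 bases wide in naked mole-rats, at a fold of 96.0, 650 in Damaraland mole-rats, 1209 in guinea pigs and 1830 in mice. Which genes lie in these regions is not reported here.

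Heart was set against liver to see whether the widths follow the species or the tissue. Median widths in liver were 239 to 666 bases in 5 naked mole-rats, 339 to 726 in 2 Damaraland mole-rats, 886 to 1017 in 3 guinea pigs and 1132 to 1239 in 4 mice. Over whole lists the liver medians of the mole-rats thus also lay below those of guinea pigs and mice. With 14000 top peaks they did not: they were 809 to 1239 bases in naked and 769 to 1283 in Damaraland mole-rats, 924 to 1155 in guinea pigs and 1339 to 1483 in mice, so only mice lay apart. Heart minus liver in log2 median width was -0.06 in naked mole-rats, -0.26 in Damaraland mole-rats and -0.08 in guinea pigs (exact permutation p = 0.905, 0.857 and 0.70). The tests in Damaraland mole-rats and guinea pigs could not pass, since their smallest reachable exact permutation p was 0.095 and 0.10. In mice heart minus liver was -0.62, with mouse 17_36584 alone among the 6 hearts inside the liver range (exact permutation p = 0.019, adjusted over the 4 species 0.076). It was -0.37 without mouse 6842. With 14000 top peaks of each list the mouse difference was -0.10 (exact permutation p = 0.629).

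Animals with both tissues did not share a direction. Heart minus liver was -0.99, 0.31, 1.12 and -1.17 in naked mole-rats NMR35, NMR31, NMR32 and NMR34, and -1.95 and 0.78 in DMR4 and DMR1. In guinea pigs 7, 8 and 9 it was -0.02, -0.32 and 0.09. In NMR32, NMR34, DMR1 and guinea pig 9 the heart library is vl and the liver library do, so tissue and prefix cannot be told apart there. The other animals had the same prefix in both tissues. No mouse had both tissues.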

How the data were processed

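The 18 lists of heart H3K4me3, and the H3K27ac and H3K4me1 heart and H3K4me3 liver lists used beside them, were analysed as deposited, 1 list per library. MACS2 is named in the submitters' processing notes, with its version, its settings and the aligner not given in the sources used here. Deposited values of column 7 are a fold ratio over background, and those of columns 8 and 9 are −log10 p-values and −log10 q-values; no peak of the 18 lists had a q above 0.05. Builds, per the file names, were HetGla_1.0, DMR_v1.0, Cavpor3.0 and GRCm38. Positions are counted from 1. Peak lists carry no read numbers, so depth is unknown and no counting interval is given; the number of animals limits the precision.

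Everything else was computed with Python 3.11.15, NumPy 2.4.6 and pandas 2.3.3, and plots were drawn with Matplotlib 3.10.9. A peak counted as found in another library when the overlap reached 50% of the shorter peak. Regions of H3K27ac, H3K4me1 and liver H3K4me3 had to occur in at least 2 libraries of a species. The measures and the exact permutation test were tested on simulated data. Groups were species, as the titles give them, and the animal was the replicate. Heart and liver of 1 animal were paired by the animal's name in the titles. With so few animals the paired test could not reach the threshold, so it could change no call. Named regions were, per species, those present in every library with the greatest mean width and the greatest mean fold; the first by each measure is printed. The planned counts at named genes were not made, because no annotation of these builds was used here. The members, measures and limits were chosen with earlier results of these data known. Alternatives were 18000 or 5000 top peaks, a −log10 q of at least 4, scaffolds whose peaks reach 1 Mb, means for medians, limits of 1000 and 4000 bases, peaks within 500 bases merged, the name prefix, a 1 base overlap and leaving out each animal.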

Additional observations from a re-analysis of the deposited data

Results flagged for a closer look

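Single libraries stood apart from their group by a test of the gap to the nearest neighbour against the range of the group, which was run on 35 groups of 4 to 6 libraries and picks out about 1 in 20 by chance. Naked mole-rat NMR34 had a mean Jaccard index of 0.235 with the other naked mole-rats, which had 0.475 to 0.495. Damaraland mole-rat DMR4 had a median heart peak width of 188 bases, the lowest of its species, with 45.2% of its peaks at the shortest length of the list. Mouse 6842 had a median heart peak width of 334 bases, the lowest of the 6 mice, with 41.6% of its peaks at the shortest length. In the 18000 top peaks these last 2 had medians of 783 and 1020 bases, inside the range of their species.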

How the results depend on the processing

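Over whole lists 0 of the 30 species comparisons passed the exact permutation test after adjustment, and 9 had an unadjusted p under 0.05; with the 18000 top peaks the counts were 0 and 5. A −log10 q of at least 4 gave 6 that passed: width -0.90 and -0.89 for naked and Damaraland mole-rats against mice, summit 4.42 and 6.42 points for the same pairs, and for Damaraland mole-rats against mice wide peaks -9.29 and close neighbours 26.2 points. Peaks of at least 300 bases gave 3, all for Damaraland mole-rats against mice: width -0.59, neighbours 25.9 and summit 9.45 points. That limit, the restriction to peaks found in every library and the range of 1000 to 2000 bases were chosen after seeing the data.

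No difference passed over whole lists, so the reversals below are all of differences that missed the threshold and say nothing of stability. For guinea pigs against mice the width difference of 0.21 was -0.027 and -0.071 with 18000 and 5000 top peaks, -0.011 at a −log10 q of at least 4, -0.058 from 300 bases, -0.33 in peaks found in every library, and -0.035 to 0.329 without 1 animal. Their wide share was 1.63 points with a limit of 1000 bases and -3.17 to 0.163 without 1 animal, their summit -0.18 points as a mean and -0.43 to 1.39 without 1 animal, and their fold -0.30 in peaks found in every library. For naked mole-rats against guinea pigs the neighbour difference of -0.47 points was 8.45 and 7.80 with 18000 and 5000 top peaks, 5.84 at the stricter q, 5.20 after merging, 8.86 from 300 bases, 1.46 within a name prefix, and -6.23 to 8.90 without 1 animal. Between the mole-rats, width was 0.12 in peaks found in every library and -0.43 to 0.22 without 1 animal. Their wide share was 0.011 points with a limit of 4000 bases, 1.12 in peaks found in every library and -2.18 to 0.778 without 1 animal. Their summit was 0.26 points as a mean, 0.12 within a prefix and -1.63 to 0.73 without 1 animal, and their fold -0.69 to 0.087 without 1 animal. Heart minus liver was 0.32, 0.12 and 0.091 in guinea pigs with 14000 and 5000 top peaks and from 300 bases, and 0.025 in naked mole-rats at the stricter q. Without 1 animal it was -0.38 to 0.27 in naked mole-rats, -0.81 to 0.29 in Damaraland mole-rats and -0.16 to 0.040 in guinea pigs. The cause of these changes was not tested. The guinea pig mean Jaccard index of 0.795 was 0.671 with 5000 top peaks and 0.774 to 0.806 without 1 animal; those of the other species moved by less than the spread between pairs.

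With the animals paired (a replicate block), heart minus liver was -0.18 in 4 naked mole-rats, -0.59 in 2 Damaraland mole-rats and -0.08 in 3 guinea pigs. With so few animals the paired test could not reach the threshold, so no call could change. Numbers were not shared between species, so species comparisons were not paired. Depth could not be set equal, since lists carry no read numbers. Equal numbers of top peaks stand in for it only in part, because the weakest of 18000 peaks had a −log10 p of 4.91 in 1 mouse and 53.4 in DMR2.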
